A study of Mus musculus with 12 samples.

Results

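The Bcl-2 family regulators of apoptosis were followed through cultures of mouse bone marrow cells that carried the leukaemia fusion gene NUP98-HOXD13 and a second retrovirus. The members were the genes Bcl2, Bcl2l1, Mcl1, Bax, Bak1, Bid, Bad, Bcl2l11, Bbc3 and Pmaip1, and every probe set that the array's annotation gives to one of these 10 symbols was taken. That gave 29 of the 45101 probe sets on the array, for 9 of the 10 genes and out of 18193 genes that had at least 1 probe set with a single symbol. Bax was not analysed here. Of the 29, 28 lay above the 40th percentile of their array on at least 3 of the 12 arrays and were tested, and the remaining one, Bcl2l1 1426050_at, passed that percentile on only 1 array.

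The 12 arrays came from 4 groups of 3 arrays each. MEIS1-WT cells had received a retroviral vector for full-length MEIS1, MEIS1-deltaHD cells one for MEIS1 without its homeodomain, the part of the protein that binds DNA, and M33-MEIS1 cells one for a construct that the labels describe no further. MIY-ctrl cells had received the MIY vector, which codes for yellow fluorescent protein alone. All 4 groups, the controls included, were transformed by NUP98-HOXD13. The marrow came from F1 mice of the cross C57Bl/6Ly-Pep3b x C3H/HeJ that had been given 5-fluorouracil, received the fusion gene from a virus named ND13-GFP or ND13pac, and was kept in liquid culture for 4 weeks. The cytokines in the medium were 100 ng/ml of murine SCF (stem cell factor), 6 ng/ml of murine IL-3 and 10 ng/ml of human IL-6. The second virus was added during 2 days on irradiated E86 producer cells, and the RNA is that of cells that had been sorted. The sources used here do not give the sort gate, the age of the mice or the interval between the second virus and RNA extraction. Each condition is said to come from independent experiments, but the fusion-transformed lines behind them are not named per array, so the spread between arrays may be in part technical.

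Proteins of the Bcl-2 family decide whether the outer membrane of mitochondria is opened, the committing step of the intrinsic route to apoptosis. BAK1 and BAX form the pores, the antiapoptotic proteins BCL2, BCL-XL (from Bcl2l1) and MCL1 hold them in check, and the BH3-only proteins BIM (Bcl2l11), PUMA (Bbc3), NOXA (Pmaip1), BID and BAD bind and neutralise the antiapoptotic proteins or engage the pore formers directly. In blood cells MCL1 is required for the survival of progenitors, and BIM and PUMA carry much of the death that follows loss of cytokines.

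Depth has no meaning for array intensities, and the number of arrays limits the precision. Within groups, the pairwise correlation of arrays was 0.980 to 0.988 over the tested probe sets, which are not independent replicates. Of the 12 arrays, 11 were closest to an array of their own group, while M33-MEIS1 replicate 2 was closest to an array of another group. The brightest Meis1 probe set read 129 to 148 in MEIS1-WT cells, 100.1 to 120.0 in MEIS1-deltaHD cells and 104 to 133 in M33-MEIS1 cells, against 168 to 205 in MIY-ctrl. The files do not place this probe set on the transcript, so it is not known whether it can read RNA made from the vectors, and it checks no label. The 3' to 5' signal ratio of Actb was 1.44 to 1.48 in MEIS1-WT, 1.30 to 1.40 in MEIS1-deltaHD and 1.31 to 1.44 in M33-MEIS1 cells, against 1.49 to 1.51 in MIY-ctrl. That of Gapdh was 0.822 to 0.838 in MEIS1-WT, 0.811 to 0.828 in MEIS1-deltaHD and 0.830 to 0.882 in M33-MEIS1 cells, against 0.774 to 0.801 in MIY-ctrl. The part of these ratios in the differences between groups was not tested. All 10 progenitor markers examined lay above the 40th percentile on every array of every group. The summed signal of 12 monocyte and macrophage markers differed widely, at 725 to 873 in MEIS1-WT cells, 2631 to 2851 in MEIS1-deltaHD cells and 4109 to 4596 in M33-MEIS1 cells, against 12788 to 14500.3 in MIY-ctrl. That of 10 neutrophil granule markers was 13837 to 14575 with MEIS1-WT, 21007 to 22439 with MEIS1-deltaHD and 21536 to 25159 with M33-MEIS1, against 15084 to 18698 in MIY-ctrl. Mast cell and basophil markers, 10 in all, summed to 4799 to 5294 in M33-MEIS1 cells, 2240 to 2516 in MEIS1-deltaHD cells and 1825 to 1953 in MEIS1-WT cells, against 2983 to 4501 in MIY-ctrl. The 7 megakaryocyte markers on the array summed to 623 to 836 in MEIS1-deltaHD cells, 1133 to 1576 in M33-MEIS1 cells and 1493 to 2187 in MEIS1-WT cells, against 936 to 1126 in MIY-ctrl. In such mixed cultures, fewer cells of a type and less RNA per cell cannot be told apart.

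The sequences upstream of Bcl2l11 and Bbc3 are shown first because these were the only member genes with a called difference between constructs, in the comparisons given further on. The windows run from 250 bases before to 50 bases after a gene's start in RefSeq for build GRCm38.p6. They were searched on both strands for TGACAG, the core that the MEIS1 homeodomain recognises, and for TGATNNAT, a site type of PBX and HOX protein pairs. TGACAG or its reverse complement CTGTCA stood in 19.2% of 32851 windows of all genes, and TGATNNAT in 8.85%. Windows were searched for 9 of the 10 member genes, Bax included, and Pmaip1 was not searched here. Of their 15 windows, 3 held TGACAG, for Bcl2l1, Bad and Bbc3, and 1 held TGATNNAT, for Bid. The share with TGACAG is near that of all windows, and the other windows of Bcl2l1, Bad and Bbc3 held neither set of letters. The base sequence upstream of the first Bcl2l11 start (chr2:128125788-128126037, plus strand) held neither set of letters and is therefore in lower case throughout. For Bbc3 (chr7:16310383-16310412, plus strand) and Bcl2l1 (chr2:152828628-152828657 and chr2:152828596-152828625, minus strand) the 30 bases around each match are given, with the matched letters in capitals. A match of letters is a description and not a binding site, and no match says only that these letters are not in this window.
Bcl2l11 upstream: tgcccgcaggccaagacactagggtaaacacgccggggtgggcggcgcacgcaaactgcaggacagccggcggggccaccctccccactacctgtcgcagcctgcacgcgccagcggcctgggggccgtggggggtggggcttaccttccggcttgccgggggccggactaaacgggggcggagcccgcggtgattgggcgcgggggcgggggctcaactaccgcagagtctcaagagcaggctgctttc
Bbc3 match: gggggggggctgTGACAGcggaggggcggc
Bcl2l1 first match: attaagatttggTGACAGactgtatgtggg
Bcl2l1 second match: tgagtcctggccCTGTCActtaactggcca

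The values are the authors' signal on a linear scale, with each array scaled to the same trimmed mean. Differences are given on the log2(signal + 16) scale from one limma model over all 12 arrays, with the standard error (SE) of the model. P-values are two-sided, adjusted by Benjamini and Hochberg over all 31726 probe sets tested, and a probe set was called at an adjusted p below 0.05. Adding 16 makes the differences of dim probe sets smaller than the ratios of their signals, and the levels of different probe sets cannot be compared with each other. The 3 comparisons with MIY-ctrl share its arrays, so their values for a member are set side by side and not counted as separate support.

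Against the control vector, the members that differed were mostly lower, and they came from both sides of the pathway. With MEIS1-WT, 0 of the 28 member probe sets were called higher and 14 lower, where 13.1% and 17.8% of all tested probe sets were called in those directions. With MEIS1-deltaHD, 2 were higher and 15 lower, against a background of 13.8% and 20.8%. With M33-MEIS1, 0 were higher and 12 lower, against 11.8% and 17.1%. At an unadjusted p below 0.05 in the same limma model, the counts were 0 higher and 15 lower in MEIS1-WT cells, 4 and 15 in MEIS1-deltaHD cells and 0 and 15 in M33-MEIS1 cells. No share of all probe sets is given at that threshold, so these unadjusted counts have no background beside them. The median log2 difference of the members was -0.45, -0.38 and -0.28 in the 3 comparisons, while the median over all tested probe sets was -0.10, -0.14 and -0.12. Probe sets of one gene share their transcript, so these counts are not counts of genes. Judged by the brightest probe set of each of the 9 genes, 0 were higher and 4, 5 and 4 were lower. The shares above are of probe sets, and no share of all genes is given beside this count. Over the 4 groups together, 18 of the 28 probe sets passed the moderated F test, where 35.3% of all probe sets did.

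These counts depend on how the arrays are put on a common scale. With arrays scaled to an equal median, the median of all probe sets moved up by 0.23, 0.31 and 0.22 for MEIS1-WT, MEIS1-deltaHD and M33-MEIS1 against MIY-ctrl. With MEIS1-WT, 3 member probe sets were then called higher and 5 lower, where 24.9% and 6.57% of all probe sets were. With MEIS1-deltaHD it was 8 higher and 3 lower, against 30.4% and 5.68%, and with M33-MEIS1 6 higher and 2 lower, against 22.8% and 5.04%. The shares of all probe sets thus moved toward higher calls together with the members. Quantile normalization gave 0 higher and 12 lower with MEIS1-WT (15.7% and 12.8% of all), 3 and 12 with MEIS1-deltaHD (16.6% and 13.8%) and 0 and 11 with M33-MEIS1 (13.7% and 11.9%). Under all 3 scalings, 5 of the 14 calls with MEIS1-WT stood, those of 4 Bcl2l11 probe sets and of Bcl2 1443837_x_at. With MEIS1-deltaHD it was 5 of 17, namely Bbc3, 2 Bcl2l11 probe sets and the higher Bad and Bak1 probe sets, and with M33-MEIS1 2 of 12, Bbc3 and Bcl2l11 1435449_at. The Bak1 probe set, 1425716_s_at, read below the 40th percentile of every control array, so its calls rest on values near the floor.

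**Figure D1:**
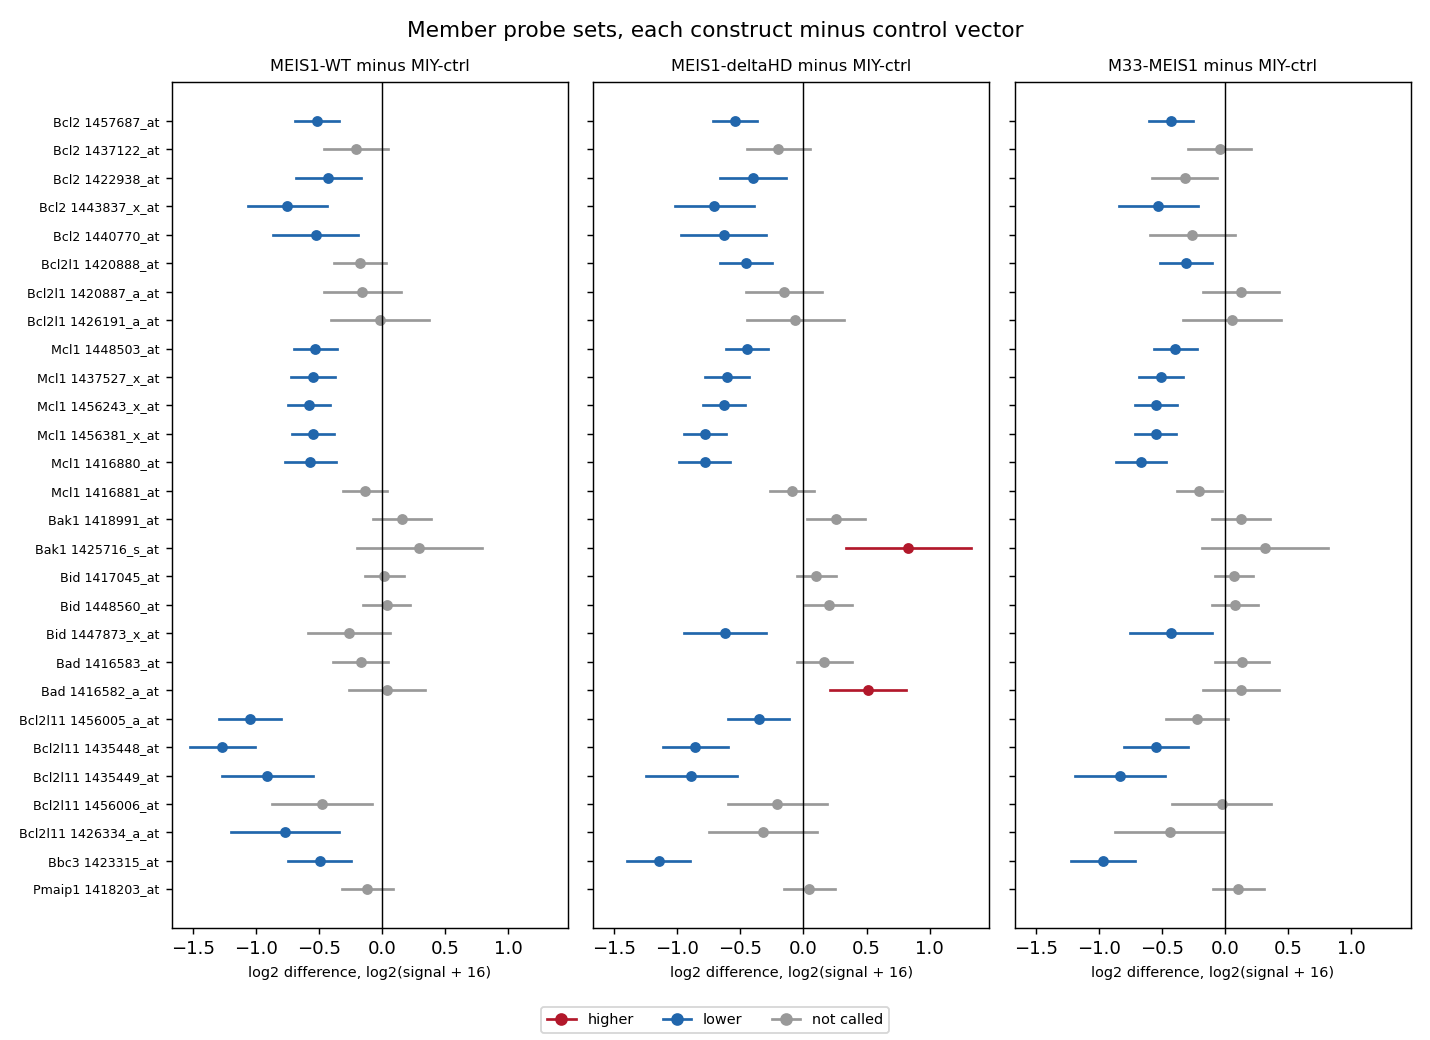
Log2 difference in log2(signal + 16) of each of the 28 tested member probe sets, for each construct minus MIY-ctrl, with 95% confidence intervals; red marks called higher, blue called lower and grey no call. Bcl2, Mcl1, Bcl2l11 and Bbc3 hold 14 of 14, 13 of 15 and 10 of 12 lower calls in the 3 panels, and the others are 1 of Bcl2l1 and 1 of Bid in each of the last 2.

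Among the antiapoptotic members, Mcl1 was read by 6 probe sets, and 5 of them were called lower in all 3 constructs. The brightest, 1448503_at, read 1400.0, 1306 and 1082 in MEIS1-WT cells, 1315, 1357 and 1317 in MEIS1-deltaHD cells and 1414, 1431 and 1299.7 in M33-MEIS1 cells, against 1768, 1823 and 1865 in MIY-ctrl. Every construct array lay below every control array, and the 3 constructs overlapped one another. The log2 differences from control were -0.53, -0.45 and -0.39 (SE 0.0816, adjusted p = 2.05e-05, 0.000142 and 0.000722). Over the 5 called probe sets the differences ran from -0.39 to -0.78. The sixth, 1416881_at, averaged 432 ± 49.7, 444 ± 9.15 and 409 ± 11.7 in MEIS1-WT, MEIS1-deltaHD and M33-MEIS1 cells, against 473 ± 21.4 in MIY-ctrl (SD, n = 3 each). Its differences were -0.13, -0.09 and -0.20, with no call. All 15 lower calls of Mcl1 were kept under quantile normalization, and none was kept with equal array medians, where the difference of 1448503_at with MEIS1-deltaHD was 0.06.

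Bcl2, the founding member of the family and a guardian of survival in lymphoid and progenitor cells, was read by 5 probe sets. Its brightest, 1457687_at, read 296, 303 and 294 in MEIS1-WT cells, 288, 276 and 314 in MEIS1-deltaHD cells and 321, 318 and 314 in M33-MEIS1 cells, against 458, 442 and 399.6 in MIY-ctrl. The lowest control array lay above the highest construct array, and the constructs differed little among themselves. The log2 differences were -0.52, -0.54 and -0.43 (SE 0.0836, adjusted p = 3.78e-05, 1.92e-05 and 0.000407). Equal array medians brought them to -0.16, -0.06 and -0.08, with no call. Of the 5 probe sets, 4 were called lower in MEIS1-WT cells, 4 in MEIS1-deltaHD cells and 2 in M33-MEIS1 cells. The exception with all constructs was 1437122_at, at -0.21, -0.20 and -0.04. The dimmer 1443837_x_at was lower at -0.75, -0.70 and -0.53, and its MEIS1-WT call was kept under every alternative that tested it.

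Bcl2l1, whose long product BCL-XL is antiapoptotic and whose short product is proapoptotic, was lower in 1 of its 3 tested probe sets. The probe set 1420888_at read 185, 191 and 191 in MEIS1-WT cells, 160.2, 144 and 153 in MEIS1-deltaHD cells and 152, 169.7 and 192 in M33-MEIS1 cells, against 207, 230.3 and 208 in MIY-ctrl. No construct array reached the lowest control array. The difference was called with MEIS1-deltaHD (-0.45, SE 0.0994, adjusted p = 0.000931) and M33-MEIS1 (-0.31, adjusted p = 0.0224) and not with MEIS1-WT (-0.17, adjusted p = 0.211). MEIS1-deltaHD minus MEIS1-WT itself gave -0.28 with an adjusted p of 0.125, so the constructs were not shown to differ. With equal array medians the MEIS1-deltaHD and M33-MEIS1 differences were 0.01 and 0.03. The M33-MEIS1 call was also lost without M33-MEIS1 replicate 1, without M33-MEIS1 replicate 2, without MIY-ctrl replicate 2 and with only the 2 groups compared. The other 2 tested probe sets had no call as deposited, and 1420887_a_at became a higher call with M33-MEIS1 at equal array medians (0.42, adjusted p = 0.0485). The array cannot separate the long from the short product with the annotation used here.

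**Figure D2:**
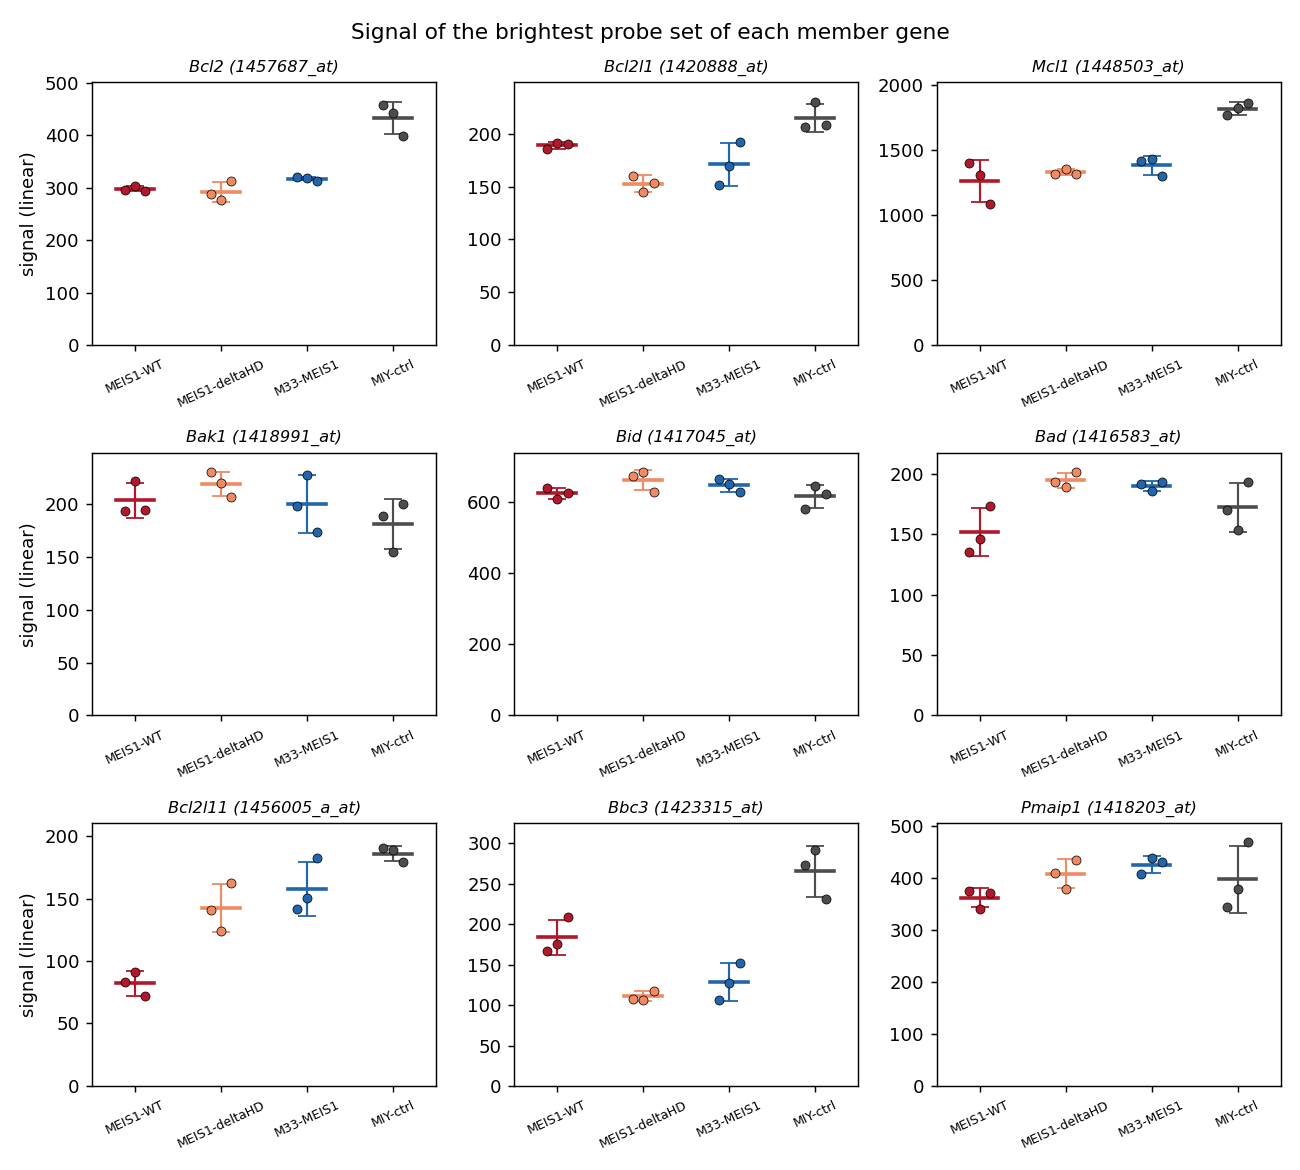
Linear signal of the brightest probe set of each member gene on each of the 12 arrays (points), with the group mean (bar) and SD (whiskers, n = 3). Control arrays stand above all construct arrays for Bcl2, Bcl2l1, Mcl1 and Bbc3, and in Bid no construct is separate from control.

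The gene of the pore former BAK1 was not called lower in any of the 3 constructs. The brighter Bak1 probe set, 1418991_at, averaged 203 ± 16.3 in MEIS1-WT cells, 219 ± 11.6 in MEIS1-deltaHD cells and 199.7 ± 27.3 in M33-MEIS1 cells, against 181 ± 23.2 in MIY-ctrl (SD, n = 3 each). Its differences from control were 0.16, 0.26 and 0.13, with no call, and all 3 became calls with equal array medians (0.49, 0.72 and 0.46). The dim probe set 1425716_s_at, of a type whose probes can be shared between genes, read 28.0, 19.4 and 23.5 with MEIS1-deltaHD, against 4.07, 4.54 and 10.5 in MIY-ctrl. It was called higher (0.83, SE 0.240, adjusted p = 0.00898), but every control array read it below its 40th percentile (11.1 to 14.8). The median of an array was 13.1 to 21.6. The probe set passed the filter through construct arrays only, and its F test over the 4 groups was not called (adjusted p = 0.0504). The call thus sets dim signals against values near the floor.

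Of the BH3-only genes, Bcl2l11 and Bbc3 differed most, with MEIS1-WT the lowest of the constructs in the 2 brightest Bcl2l11 probe sets and the highest of them in Bbc3. Bcl2l11, whose product BIM kills cells deprived of growth factors, was lowest with MEIS1-WT. Its probe set 1456005_a_at read 82.9, 91.5 and 72.0 in MEIS1-WT cells, 141, 124 and 163 in MEIS1-deltaHD cells and 141, 150.1 and 182 in M33-MEIS1 cells, against 191, 189 and 179 in MIY-ctrl. The MEIS1-WT arrays lay below all 9 others, and the M33-MEIS1 and control arrays overlapped. MEIS1-WT reached 44.2% of the control mean (log2 difference -1.05, SE 0.118, adjusted p = 2.55e-07), and this call was kept under all 22 alternative settings. MEIS1-deltaHD was called at -0.36 (adjusted p = 0.0221), a call that ended under quantile normalization and turned to 0.11 with equal array medians. M33-MEIS1 was not called (-0.22, adjusted p = 0.172).

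A second Bcl2l11 probe set, 1435448_at, gave the same lowest group. It read 39.6, 52.6 and 58.3 in MEIS1-WT cells, 72.8, 73.7 and 67.3 in MEIS1-deltaHD cells and 91.6, 87.1 and 98.1 in M33-MEIS1 cells, against 137, 147 and 143 in MIY-ctrl. No 2 groups overlapped on these arrays. The differences from control were -1.26, -0.86 and -0.55 (SE 0.124, adjusted p = 2.79e-08, 8.27e-06 and 0.00169), and with equal array medians they were -0.95, -0.42 and -0.23, of which the last was not a call. The probe set 1435449_at was called lower by a like amount in all 3 constructs, at -0.91, -0.89 and -0.83, under every alternative that tested it. The dim 1426334_a_at was called with MEIS1-WT only (-0.77, adjusted p = 0.00624) and lost that call without MEIS1-WT replicate 2, which read 4.10 where the other two read 15.7 and 15.2. The other dim probe set, 1456006_at, had no call in any comparison.

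Bbc3, the gene of PUMA and a direct target gene of p53 and of stress-response factors, was read by 1 probe set, 1423315_at. It read 167, 176 and 209 in MEIS1-WT cells, 108, 107 and 118 in MEIS1-deltaHD cells and 106, 127 and 152 in M33-MEIS1 cells, against 273, 292 and 231 in MIY-ctrl. The control arrays lay above all others, and the MEIS1-WT arrays lay above those of the other constructs. MEIS1-deltaHD reached 41.7% and M33-MEIS1 48.5% of the control mean (log2 differences -1.15 and -0.97, SE 0.121, adjusted p = 9.87e-08 and 1.67e-06), and both calls were kept under all 22 alternatives. MEIS1-WT reached 69.3% (-0.49, adjusted p = 0.00285), a call that was lost with equal array medians (-0.15).

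**Figure D3:**
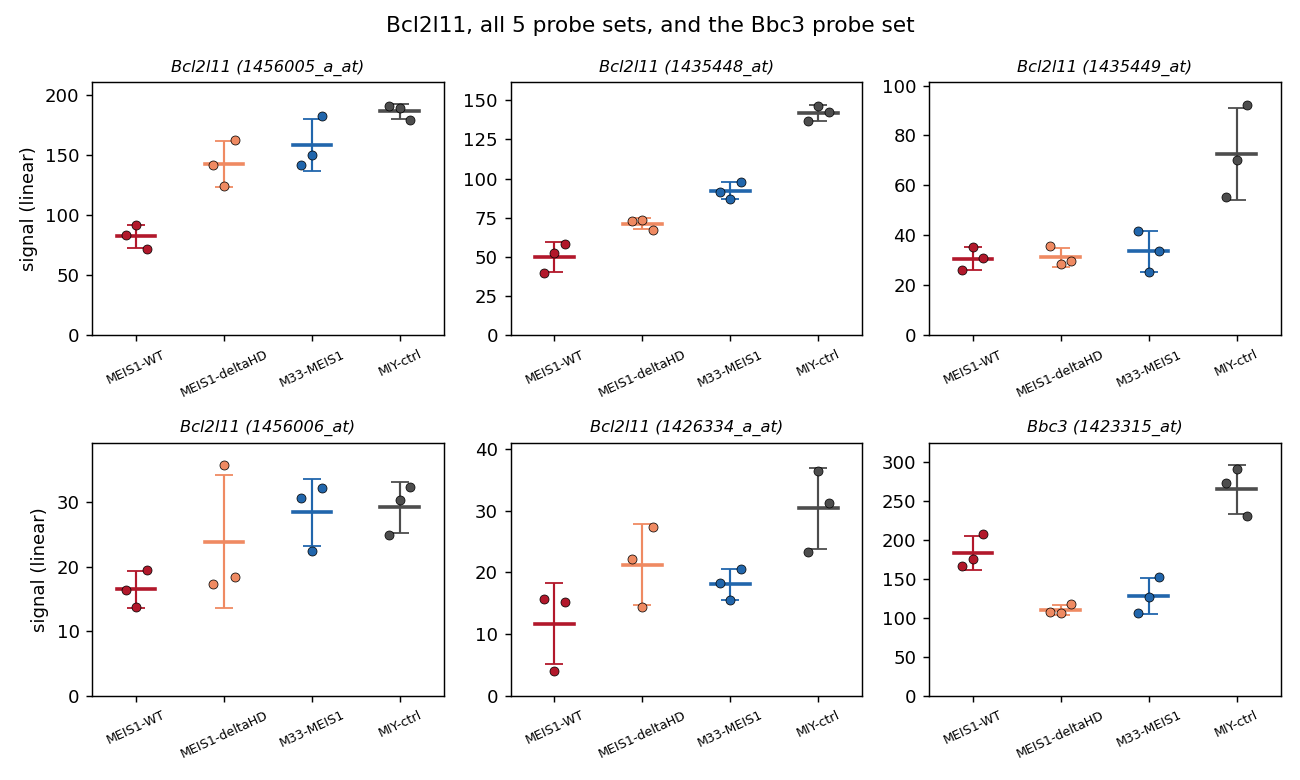
Linear signal of the 5 Bcl2l11 probe sets and of the Bbc3 probe set on each array (points), with the group mean (bar) and SD (whiskers, n = 3). Bcl2l11 1456005_a_at is lowest in the 3 MEIS1-WT arrays (72.0 to 91.5), while Bbc3 is lowest in the MEIS1-deltaHD and M33-MEIS1 arrays (106 to 152).

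The other BH3-only genes moved little. Bid, which links death receptors to mitochondria once caspase cleavage has activated it, averaged 623 ± 15.2, 661 ± 29.0 and 646 ± 18.4 in 1417045_at in MEIS1-WT, MEIS1-deltaHD and M33-MEIS1 cells, against 615 ± 33.6 in MIY-ctrl (SD, n = 3 each). Neither this probe set nor 1448560_at was called, and both became higher calls in all 3 constructs with equal array medians. The dim Bid 1447873_x_at was called lower with MEIS1-deltaHD (-0.62, adjusted p = 0.00323) and M33-MEIS1 (-0.42, adjusted p = 0.0459), and both calls were lost under quantile normalization and with equal array medians. The M33-MEIS1 call was lost under 17 of 20 alternatives, which included the replicate block, no filter and the loss of any array except M33-MEIS1 replicate 1. Pmaip1, a p53 target gene that codes for NOXA, averaged 362 ± 18.4, 408 ± 28.0 and 425 ± 16.2 with the 3 constructs, against 397 ± 64.9 in MIY-ctrl, and had no call. With equal array medians it was called higher with MEIS1-deltaHD (0.53) and M33-MEIS1 (0.45).

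Bad, whose product is inactivated by survival kinases, was called higher in 1 of 2 probe sets with MEIS1-deltaHD. The probe set 1416582_a_at read 133, 219 and 146 there, against 112, 89.9 and 128 in MIY-ctrl. One array stood well above the rest, and the groups did not overlap. The difference was 0.51 (SE 0.146, adjusted p = 0.00827), and the call was lost without MEIS1-deltaHD replicate 2, the array at 219, where the difference was 0.31, and without MIY-ctrl replicate 2. The other probe set, 1416583_at, was not called in any comparison with the arrays as deposited, though it passed the F test over the 4 groups (adjusted p = 0.0479). With equal array medians it was called higher with MEIS1-deltaHD (0.63, adjusted p = 0.000718) and M33-MEIS1 (0.46, adjusted p = 0.0152).

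Between the constructs, the differences lay in Bcl2l11 and Bbc3. The monocyte and macrophage, neutrophil, mast cell and megakaryocyte markers given above also differed between the constructs, and their part in these differences was not tested. MEIS1-deltaHD minus MEIS1-WT gave 1 higher call and 1 lower call among the 28 probe sets, where 2.42% and 2.11% of all probe sets were called. Bcl2l11 1456005_a_at was higher with MEIS1-deltaHD by 0.69 (SE 0.118, adjusted p = 0.000518), and Bbc3 was lower (-0.65, SE 0.121, adjusted p = 0.00129). Both calls were kept under all 22 alternatives. Bcl2l11 1435448_at had the same direction, at 0.41 with an adjusted p of 0.0631, and its groups did not overlap. The remaining Bcl2l11 probe sets had no call, at 0.02 (1435449_at), 0.27 (1456006_at) and 0.45 (1426334_a_at).

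M33-MEIS1 minus MEIS1-WT gave 2 higher calls and 1 lower call, where 3.36% and 2.19% of all probe sets were called. Bcl2l11 was higher with M33-MEIS1 in 1456005_a_at (0.82, adjusted p = 4.42e-05) and 1435448_at (0.72, adjusted p = 0.000413), under every alternative that tested them. Its remaining probe sets had no call, at 0.08 (1435449_at), 0.33 (1426334_a_at) and 0.45 (1456006_at). Bbc3 was lower (-0.47, adjusted p = 0.0185). That call was lost without M33-MEIS1 replicate 1, without M33-MEIS1 replicate 2, the array closest to another group, without MEIS1-WT replicate 3, and without the intensity trend. With equal array medians the 3 called differences were 0.82, 0.72 and -0.48.

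M33-MEIS1 minus MEIS1-deltaHD gave 0 calls among the members in limma, where 0.492% of all probe sets were called. At an unadjusted p below 0.05, 3 member probe sets were higher and 2 lower, with no share of all probe sets given at that threshold. The largest differences were those of the dim Bak1 1425716_s_at (-0.51), of Bad 1416582_a_at (-0.38) and of Bcl2 1440770_at (0.37). For Bbc3 the difference was 0.18, with a 95% confidence interval of -0.07 to 0.43, and for Bcl2l11 1456005_a_at it was 0.13, with an interval of -0.11 to 0.38. These intervals do not show that the constructs act alike.

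**Figure D4:**
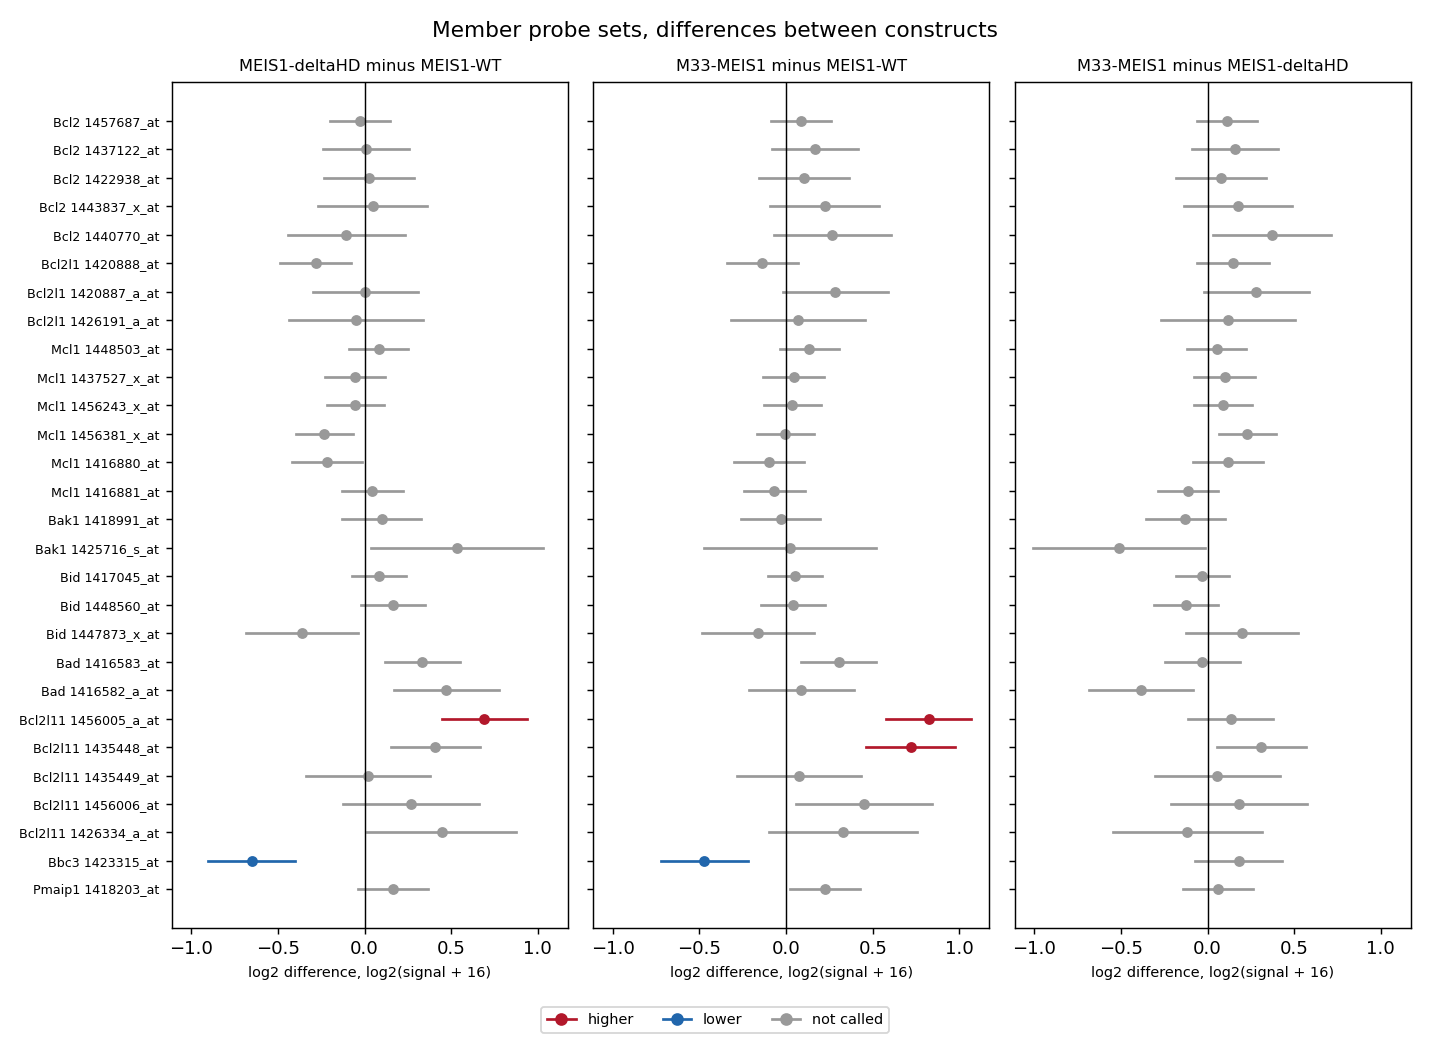
Log2 difference in log2(signal + 16) of each of the 28 tested member probe sets between constructs, with 95% confidence intervals; red marks called higher, blue called lower and grey no call. Only Bcl2l11 (higher than with MEIS1-WT) and Bbc3 (lower than with MEIS1-WT) are coloured, and the panel of M33-MEIS1 minus MEIS1-deltaHD has no call.

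The group means of the 28 probe sets were also ranked. The lowest mean was with MEIS1-WT for 12 (23.6% of all tested probe sets), MEIS1-deltaHD for 10 (30.0%), M33-MEIS1 for 1 (21.3%) and MIY-ctrl for 5 (25.2%). The highest was with MEIS1-WT for 0 (19.6%), MEIS1-deltaHD for 6 (17.1%), M33-MEIS1 for 3 (14.0%) and MIY-ctrl for 19 (49.2%). All 3 MEIS1-WT arrays lay below all 3 control arrays for 17 probe sets (25.2% of all probe sets did) and above for 0 (16.7%). For MEIS1-deltaHD it was 16 below (29.8%) and 4 above (17.1%), and for M33-MEIS1 16 below (24.3%) and 0 above (14.6%). Between constructs, MEIS1-deltaHD arrays lay above those of MEIS1-WT for 7 (10.4%) and below for 5 (12%), and M33-MEIS1 arrays lay above for 9 (10.2%) and below for 1 (10.5%). M33-MEIS1 arrays lay above those of MEIS1-deltaHD for 4 (8.92%) and below for 2 (7.10%). The spread within a group was small beside the larger differences, with a coefficient of variation of 1.12% to 17.8% in the brightest probe set of each gene.

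**Figure D5:**
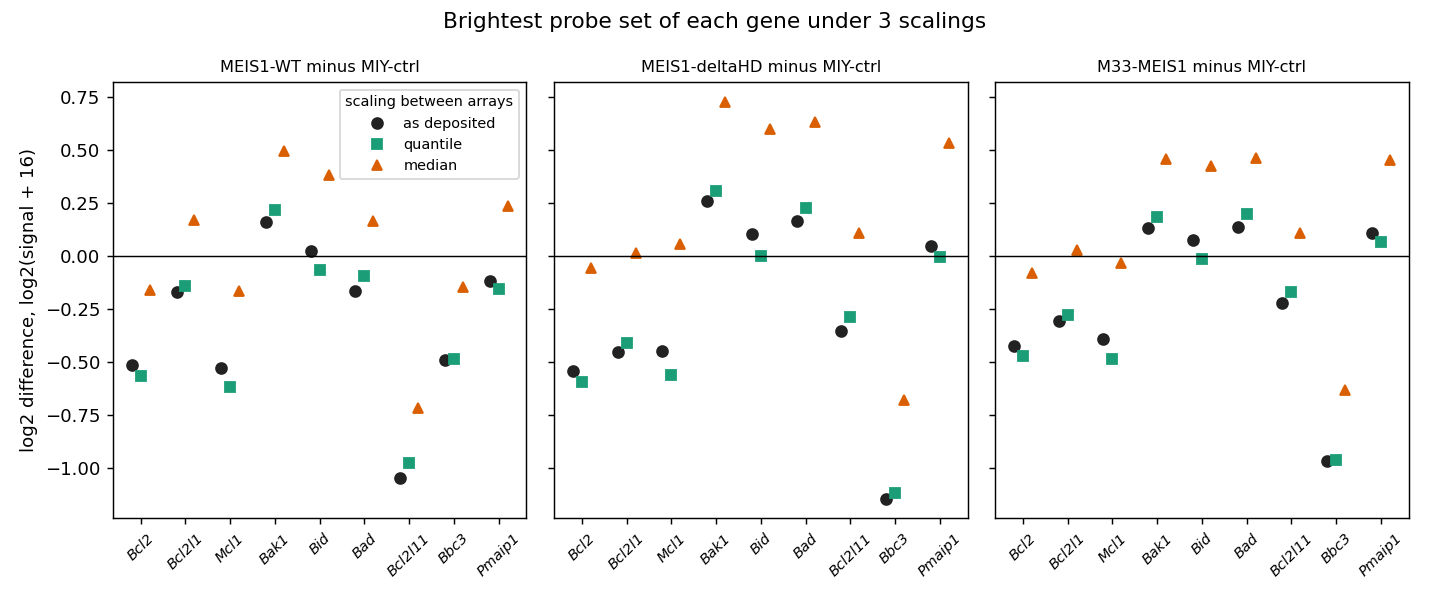
Log2 difference from MIY-ctrl of the brightest probe set of each member gene with the arrays as deposited (circles), quantile normalized (squares) and scaled to an equal median (triangles). Bcl2l11 with MEIS1-WT and Bbc3 with MEIS1-deltaHD and M33-MEIS1 are still at -0.72, -0.68 and -0.63 with equal medians, while the differences of Mcl1, Bcl2 and Bcl2l1 shrink toward 0 or pass it with equal medians.

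Some genes followed the pattern of a member closely over the 12 arrays, given here as a description over arrays that share their groups. Bcl2l11 1456005_a_at was most like Csf1r, the receptor for the macrophage growth factor M-CSF, with a Pearson r of 0.964 among 14004 genes. Csf1r is a marker of monocytes, and the summed monocyte signal was likewise lowest with MEIS1-WT and highest in MIY-ctrl. Its part in the Bcl2l11 difference was not tested. Bbc3 was most like Ptger3, a prostaglandin E receptor (0.979). Bcl2 was most like Eid1 (0.983), Mcl1 like Fam174a (0.974) and Bcl2l1 like Adamts6 (0.962). Bak1 was most like Cox7a1 (0.940), Bad like Mgst2 (0.910), Bid like Ddx41 (0.897) and Pmaip1 like Cnnm4 (0.890).

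Beside the members, other parts of the pathway changed in both directions, judged by the brightest probe set of each gene. For the gene lists that follow, the counts stand without a share of all genes called. The shares given earlier are of probe sets. Whether any list held more calls than other genes was not tested. Of 9 other Bcl-2 family genes tested, 2, 3 and 2 were higher and 2, 2 and 1 lower in MEIS1-WT, MEIS1-deltaHD and M33-MEIS1 cells against MIY-ctrl. Bmf, a BH3-only gene linked to loss of attachment, fell by a like amount in all 3 constructs, at -1.36, -1.21 and -1.10. It averaged 25.9 ± 6.63, 30.4 ± 6.69 and 33.8 ± 5.72 with the constructs, against 90.6 ± 6.65 in MIY-ctrl (SD, n = 3 each). Bnip3, a mitochondrial gene induced by low oxygen, rose by 1.2, 0.93 and 1.37. The counts of these 9 genes became, with equal array medians, 4 higher in each construct and 2, 1 and 1 lower. Bmf and Bnip3 held their calls in all 3 constructs under every alternative that tested them.

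Of 15 genes of the apoptosome and the caspases, 5, 4 and 5 were higher and 6, 6 and 3 lower. Casp4, an inflammatory caspase, fell most, at -1.86, -1.94 and -1.46, and the inflammatory Casp1 was lower at -1.0, -0.61 and -0.39, and the calls with MEIS1-deltaHD and M33-MEIS1 were lost with equal array medians, the M33-MEIS1 call also without the intensity trend and without M33-MEIS1 replicate 2. Casp1 was also higher than with MEIS1-WT in MEIS1-deltaHD (0.39, adjusted p = 0.0440, lost under 9 of 22 alternatives) and in M33-MEIS1 (0.62, adjusted p = 0.000673). The mitochondrial genes Aifm1 (0.82, 0.90 and 0.88), Htra2 (0.82, 0.76 and 0.66) and Endog (0.62, 0.97 and 0.64), whose products are released when the outer membrane opens, were higher in every construct. After scaling to equal array medians, the counts of these 15 genes became 6, 8 and 8 higher and 2, 1 and 1 lower. The balance of higher and lower calls thus turned with MEIS1-WT and MEIS1-deltaHD, as it did over all probe sets.

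Of 8 genes of the inhibitor of apoptosis family, 1 was higher in each construct and 5, 7 and 4 were lower. The higher one was Birc5, the mitotic gene survivin, at 1.19, 1.29 and 1.24. The lower ones included Naip5, a sensor of bacterial flagellin in macrophages, at -1.55, -1.29 and -0.90, and Naip2, at -1.09, -0.72 and -0.47, of which the calls with MEIS1-deltaHD (-0.25) and M33-MEIS1 (-0.14) were lost with equal array medians. The family then had 1 higher gene in each construct and 3, 1 and 1 lower ones. Of 12 genes of the death receptor arm, 2, 1 and 1 were higher and 4, 3 and 3 lower, and with equal array medians 3, 5 and 4 were higher and 3, 1 and 1 lower. Fas, a death receptor, was lower at -1.28, -1.21 and -0.70, the last of which was lost under 6 of 22 alternatives. Mlkl, the executor of necroptosis, was higher at 0.93, 0.95 and 0.93. The monocyte markers were lower in the same comparisons, and their part in these differences was not tested.

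Of 26 genes that regulate the members, 7, 6 and 6 were higher and 9, 8 and 10 lower. The stress genes Trib3 and Ddit3 were much lower in all constructs. Trib3 averaged 87.1 ± 10.2, 61.0 ± 17.4 and 79.5 ± 9.57 in MEIS1-WT, MEIS1-deltaHD and M33-MEIS1 cells, against 834 ± 140.1 in MIY-ctrl (SD, n = 3 each), at -3.03, -3.48 and -3.14. Ddit3, which codes for the factor CHOP, a known activator of Bcl2l11 and Bbc3, was lower at -1.18, -1.73 and -1.67. It was also lower with MEIS1-deltaHD than with MEIS1-WT (-0.55, adjusted p = 0.0330), a call that was lost under 8 of 22 alternatives. The part of Ddit3 and the other regulators in the differences of the members was not tested. The survival kinase genes Pim1 (-1.21, -1.07 and -0.74) and Pim2 (-0.81, -1.16 and -0.72) were also lower, and E2f1 (0.87, 0.87 and 0.73) was higher. With equal array medians the counts of these 26 genes became 14 higher in each construct and 5, 4 and 5 lower, and the shares of all probe sets moved toward higher calls as well.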

How the data were processed

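RNA of sorted cells was measured on 12 mouse arrays, 3 for each of 4 groups. The deposited intensity values are the signal of each probe set on a linear scale, made by the authors with GCOS 1.2, per the submitters' processing notes. The mean of each array without its lowest and highest 2% lay between 99.9649 and 99.9686, so the arrays had been scaled to a common target. No other setting is given in the sources used here, and scaling to a common mean leaves array medians free to differ.

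Signals were turned into log2(signal + 16), with the authors' scaling kept. After 64 array-control probe sets were left out, probe sets that exceeded an array's 40th percentile on 3 or more arrays were tested. One linear model per probe set, for 31726 of them, was fitted over the 4 groups by limma (version 3.58.1, under R 4.3.3), with variances moderated by eBayes along a trend with mean intensity, 8 residual degrees of freedom and Benjamini-Hochberg adjustment within each of 6 comparisons. The script was tested on simulated data. With 3 arrays a group, the smallest two-sided p of an exact permutation test between a pair of groups is 0.1.

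Of the probe sets, 34945 carried 1 gene symbol, 932 several and 9160 none in the array annotation, and symbols were brought up to date through Entrez gene IDs. Probe sets ending in _x_at hold probes similar to other sequences, and those ending in _s_at are shared between transcripts. The members and the gene lists were chosen with earlier results of these data known. All member probe sets are described. From each pathway list, up to 3 called genes per direction with the largest difference could be named, by the brightest probe set of the gene, and for each member the gene of most similar pattern. The alternatives were 22 settings: another pseudocount, quantile or median scaling, no filter, 1 probe set per gene, no _x_at or _s_at probe sets, no trend, the replicate number as a block, only the groups compared, and each array left out.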

Additional observations from a re-analysis of the deposited data

How the results depend on the processing

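Some of the 22 alternatives did not test every probe set. Under every alternative that tested them, 4 of 14 called member probe sets kept their call for MEIS1-WT minus MIY-ctrl. It was 4 of 17 for MEIS1-deltaHD minus MIY-ctrl and 2 of 12 for M33-MEIS1 minus MIY-ctrl. Between constructs it was 2 of 2 for MEIS1-deltaHD minus MEIS1-WT and 2 of 3 for M33-MEIS1 minus MEIS1-WT. Median scaling of the arrays gave 8 member calls for MEIS1-WT minus MIY-ctrl, 11 for MEIS1-deltaHD minus MIY-ctrl, 4 for MEIS1-deltaHD minus MEIS1-WT, 11 for the F test over the 4 groups, and 74 calls among all probe sets for M33-MEIS1 minus MEIS1-deltaHD. It reversed, for MEIS1-deltaHD minus MIY-ctrl, Mcl1 1416881_at to 0.40, Mcl1 1448503_at to 0.0552, Bcl2l1 1420888_at to 0.0121, Bcl2 1422938_at to 0.0372, Bcl2l11 1456005_a_at to 0.11, Casp6 to 0.0741, Casp2 to 0.193, Tnfrsf1a to 0.05 and Tnfrsf1b to 0.10, and for M33-MEIS1 minus MIY-ctrl, Bcl2l1 1420888_at to 0.0251, Casp2 to 0.0348 and Tnfrsf1a to 0.0188. Median scaling also reversed Casp2 for MEIS1-WT minus MIY-ctrl, to 0.102. The cause was not tested. The share of calls that were higher, over all probe sets, was 42.4%, 39.8% and 40.8% for MEIS1-WT, MEIS1-deltaHD and M33-MEIS1 against MIY-ctrl, 55.0%, 54.5% and 53.6% after quantile normalization and 79.1%, 84.3% and 81.9% after median scaling. For MEIS1-deltaHD minus MEIS1-WT it was 53.4% and, after median scaling, 76.4%, and for M33-MEIS1 minus MEIS1-deltaHD 89.1% and 78.4%. With 1 probe set per gene, fewer features were tested, and member calls numbered 4, 5 and 4 of 9 against MIY-ctrl and 6 for the F test. Without _x_at and _s_at probe sets they numbered 11 of 22 for MEIS1-deltaHD and 7 of 22 for M33-MEIS1 against MIY-ctrl. The member counts of these settings, of arrays left out and of the replicate block stand without shares of all probe sets called. So do the median-scaling member counts for MEIS1-deltaHD minus MEIS1-WT and for the F test. Without the filter, M33-MEIS1 minus MEIS1-deltaHD gave 83 calls among all probe sets. Without the trend, the calls among all probe sets were 795 for MEIS1-deltaHD minus MEIS1-WT, 1167 for M33-MEIS1 minus MEIS1-WT and 37 for M33-MEIS1 minus MEIS1-deltaHD. Leaving out each array in turn gave 12 to 15, 14 to 18 and 9 to 12 member calls for MEIS1-WT, MEIS1-deltaHD and M33-MEIS1 against MIY-ctrl, 2 to 4 for MEIS1-deltaHD minus MEIS1-WT (4 without MEIS1-WT replicate 3), 2 to 3 for M33-MEIS1 minus MEIS1-WT, 0 for M33-MEIS1 minus MEIS1-deltaHD and 14 to 18 for the F test. Among all probe sets it gave 913 to 1638 calls for MEIS1-deltaHD minus MEIS1-WT, the lowest without MEIS1-deltaHD replicate 1, 1227 to 2000 for M33-MEIS1 minus MEIS1-WT and 62 to 185 for M33-MEIS1 minus MEIS1-deltaHD, the lowest without MEIS1-deltaHD replicate 2. Fewer arrays entered these fits. The samples share replicate numbers, but no source says that a number marks a shared culture. Over 18 pairs with the same number the deviations from the group means correlated at -0.047 to 0.028, with 0 pairs over 0.1, and 1 of 12 arrays was closest to its own number. With the replicate block, member calls were 14, 17 and 11 against MIY-ctrl, 2, 3 and 0 between constructs and 19 for the F test.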
